A study of Mus musculus with 2 samples.

Results

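The core binding factors are the transcription factors Runx1, Runx2 and Runx3 and their shared partner Cbfb. Every array probe that the scanner files name after one of these 4 genes, or whose transcript carries that symbol now, was taken. This gave 4 genes of 22010 named on the array, with 10 probes of 41174 (2 for Runx1, 4 for Runx2, 2 for Runx3 and 2 for Cbfb), and 5 of the 24676 probes that could be tested. The study compared G1E-ER-GATA-1 cells given siRNA against LMO2 with the same cells given control siRNA. G1E-ER-GATA-1 is 1 mouse erythroid line that lacks GATA-1 and carries a GATA-1 protein fused to the oestrogen receptor ligand-binding domain. Both arms therefore share the missing Gata1 gene and the fusion, and both were kept in estradiol, which switches the fusion on, for 24 h after transfection. RNA from the LMO2 siRNA arm (Cy3) and from the control siRNA arm (Cy5) was hybridised together on each of 2 two-colour Agilent arrays. The dyes were not swapped, so dye effects and siRNA effects cannot be told apart. The labels number the arrays as replicates and do not say that they came from separate cultures, so the spread and the p-values below describe these 2 samples and may be technical.

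RUNX proteins bind DNA through the runt domain, a fold that recognises the letters TGTGGT. CBFβ, the product of Cbfb, does not touch DNA but binds the runt domain, raises its affinity for DNA and protects RUNX proteins from breakdown. In blood formation RUNX1 with CBFβ is needed for the first stem cells and later for megakaryocytes and lymphocytes, and RUNX1 has been found on chromatin with the SCL (Tal1), LMO2, LDB1 and GATA proteins in blood progenitors. RUNX2 is best known for its part in bone formation, and RUNX3 for its part in T lymphocytes and sensory neurons.

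The probes are 60 bases long, and the first 30 bases of the 5 tested probes and of the Runx2 probe printed in 10 spots are given here because each value below is the signal bound to 1 such sequence. They are copied from the scanner files, all in lower case, and the array files assign the Runx1 probes to transcript variants 3 and 4.
Runx1 A_52_P202358, variant 3: gggcctccttgaaccactccactgccttta
Runx1 A_51_P206585, variant 4: tgtgcatcgtgtcactgtaaatgtaatggt
Runx2 A_51_P230942: caaagggactatttgtattgtatgttgcaa
Runx3 A_51_P494992: acctcttgtctccagccatgcccaggatca
Cbfb A_51_P300216: ctgtctgtcttaatgctggcgttaagatca
Cbfb A_52_P586157: tgatgatctcaaacttcgttaagtggagca

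The promoters of the Runx genes were searched for a stretch of bases that they share. RefSeq promoters (GRCm38.p6, 250 bases before to 50 after each start) were found for all 4 genes, 6 windows in all, with 2 each for Runx1 and Runx3. The longest unbroken stretch common to the most upstream windows of the 3 Runx genes is 18 bases long. That all 3 windows hold the stretch follows from this search. These were the only 3 of 32851 promoters in the table that hold it. A stretch of that length is seldom met elsewhere, so this was not a test. Inside it, 2 copies of the RUNX-binding letters TGTGGT lie on the strand opposite the gene and read ACCACA in the gene's direction. They are in capitals in the 30-base stretches below, which are printed 5′ to 3′ on the gene's strand, with the first transcribed base as position 1.
Runx1, chr16:92826025-92826054, minus strand, positions 21 to 50 from the start: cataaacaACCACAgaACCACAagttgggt
Runx2, chr17:44814583-44814612, minus strand, positions 16 to 45 from the start: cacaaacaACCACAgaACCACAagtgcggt
Runx3, chr4:135120503-135120532, plus strand, 142 to 113 bases before the start: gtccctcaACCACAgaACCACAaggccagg
TGTGGT was searched on both strands and is present in 16.8% of all promoters in the table. The Runx2 window holds 1 more copy, 80 bases before the start, while the other Runx1 window, the other Runx3 window and the Cbfb window hold none. The GATA letters AGATAA (11.2% of all promoters) and the E-box letters CAGCTG (16.3%) and CAGATG (17.2%) were in none of the 6 windows. The ETS letters GGAAGT (23.8%) were in the Cbfb window only, beginning 201 bases before the start and at position 5. These matches describe letters and were not tested for binding.

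Cbfb and Runx1 were well detected, Runx3 was weakly detected by 1 of its probes, and no Runx2 probe was well above background in 1 channel on both arrays. The brighter Cbfb probe was called 1.54-fold higher with LMO2 siRNA. A Runx1 probe was called 1.31-fold lower. That difference shrank to near 0 once the scanner's factor for position was divided out. It still passed when the median of nearby spots was subtracted instead (log2 ratio -0.29, limma adjusted p = 0.0014). The other tested member probes did not pass the test. None of the 5 met the rule used here for "rose" or "fell", which asks for a call in the same direction with 3 sets of values: background-corrected and loess-normalised signals, the same with the scanner's factor for position divided out first, and the scanner's own processed signals. "Called" below means a limma adjusted p under 0.05 with the first of these sets. The rule for all 3 sets was met by 4.08% of all tested probes, so 0 of 5 says little about these members.

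The plain signals are given in intensity units before normalisation, LMO2 siRNA channel against control channel. The Cy3 channel was dimmer for most probes, with a median log2 ratio over probes of -0.62 on replicate 1 and -0.55 on replicate 2 before loess, so a lower plain signal with LMO2 siRNA is not in itself a difference.

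**Figure D1:**
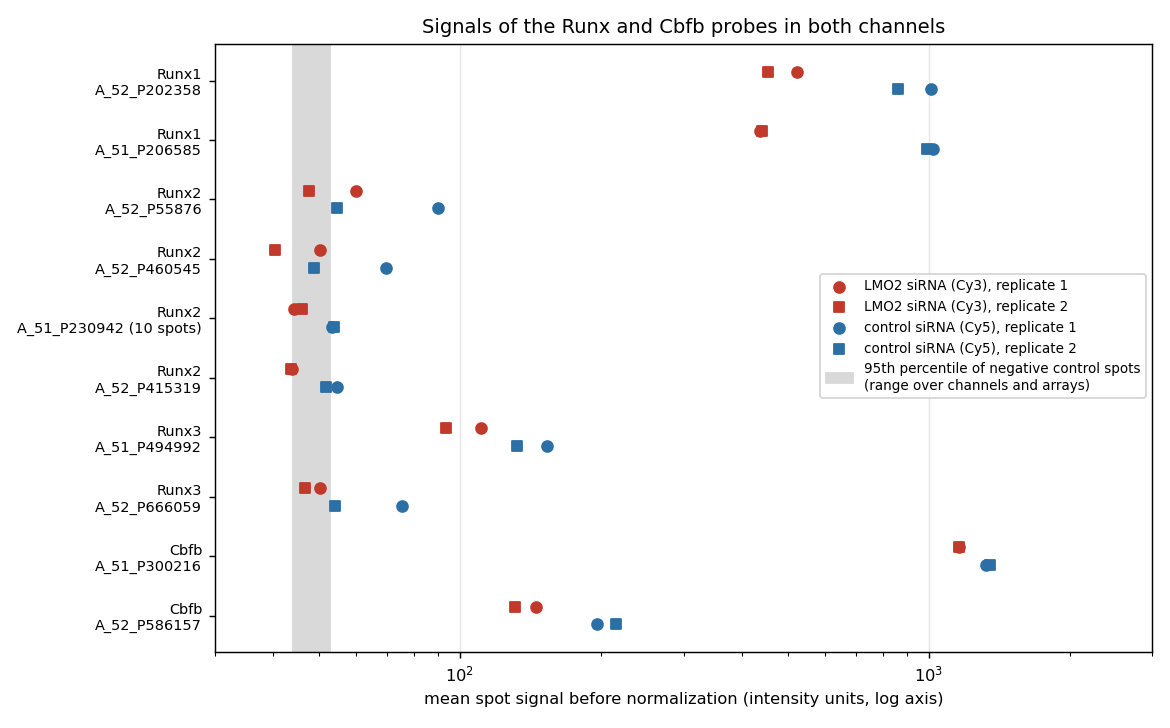
Mean spot signal (intensity units, log axis) of each of the 10 member probes in the LMO2 siRNA channel (red) and the control channel (blue), with circles for replicate 1 and squares for replicate 2; the grey band spans the 95th percentiles of the negative control spots, 44.0 to 52.8. Both Runx1 probes, both Cbfb probes and 1 Runx3 probe lie right of the band in all 4 readings, and the Runx2 probes lie in or near it except A_52_P55876 on replicate 1 (60.0 and 90.0) and the control reading of A_52_P460545 there (69.5).

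Over all probes, 55.8% to 68.2% of spots per channel and array were well above background, and across tested probes the correlation between the arrays' log2 ratios was r = 0.88, where probes are not independent replicates and the arrays share the dye orientation. The targeted gene was checked first. The Lmo2 probe read 1254 and 1138 with LMO2 siRNA, against 8336 and 8571 in the control channel, and its log2 ratio was -1.82 and -2.02 (mean -1.92 ± 0.14 SD, n = 2, a 3.77-fold lower signal). Lmo2 fell with all 3 sets of values. Limma called 21.6% of tested probes higher and 24.4% lower, 46.1% in all. With position corrected 39.1% were called (21.0% higher, 18.1% lower) and with processed signals 5.46% (3.91% higher, 1.55% lower). By the rule for all 3 sets 3.01% rose and 1.07% fell, 4.08% in all. The labels describe the cells as erythroid and also as embryonic stem cells. Of the erythroid markers, 13 of 13 on the array were well above background, with summed signals of 207931 and 199458 with LMO2 siRNA against 287305 and 272187 in the control channel, and 2 of the genes had saturated spots. Gata1 was among the 13, at 959 and 850 with LMO2 siRNA against 1955 and 1924 in the control channel. The line lacks the Gata1 gene, and whether this probe reads the fusion was not tested. Of the pluripotent stem cell markers 6 of 9 were well above background at summed signals of 600 and 550 against 837 and 687, and Nanog, Sox2 and Zfp42 were not. Pou5f1 was among the 6, dim at 61.3 and 51.3 against 83.2 and 61.6.

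Of the 5 tested member probes, 1 was called higher and 1 lower, 2 of 5 against 46.1% of all tested probes, so the count of calls is close to the background. With position corrected, 2 were called higher and 1 lower, 3 of 5 against 39.1% of all tested probes. With processed signals limma called 0 of 5, against 5.46% of all tested probes, so 0 of 5 says little about these members. There 2 of 5, both of them Cbfb probes, had an unadjusted p under 0.05, as did 35.3% of all tested probes, so this count too is close to the background. An exact sign-flip test on 2 arrays cannot give a p below 0.5, so each p here rests on the variance that limma shares across probes.

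Runx1, the main RUNX gene of blood formation, was represented by probes assigned to transcript variants 3 and 4. The variant 3 probe (A_52_P202358) read 523 and 453 with LMO2 siRNA, against 1009 and 858 in the control channel. After normalisation the arrays read log2 ratios of -0.13 (replicate 1) and -0.14 (replicate 2), a mean of -0.14 ± 0.0020 (SD, n = 2; 95% interval from limma -0.26 to -0.02). The arrays differed little, yet the difference did not pass over all probes (limma adjusted p = 0.062). It read -0.17 with position corrected (adjusted p = 0.036, limma) and -0.19 with processed signals (adjusted p = 0.15), so its direction was the same with the 3 sets and its call was not. When only the brightest probe of each gene was tested, the same ratio had a limma adjusted p of 0.042. Median centring in place of loess left the median of all tested probes at -0.35 and gave this probe -0.67 (adjusted p = 2.7e-10, limma).

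The variant 4 probe of Runx1 (A_51_P206585) read 436 and 440 with LMO2 siRNA, against 1021 and 992 in the control channel. Its log2 ratio was -0.41 and -0.36, a mean of -0.39 ± 0.04 (SD, n = 2), and limma called it 1.31-fold lower (adjusted p = 4.2e-05). This spot lies in row 34 of 532, where other spots also read low. The median log2 ratio of spots within 10 rows and 10 columns of it was -0.12 on replicate 1 and -0.07 on replicate 2, and subtracting it left -0.29 (adjusted p = 0.0014, limma). The scanner's own factor for position at this spot was 0.937 and 0.936 in the LMO2 siRNA channel and 1.12 and 1.21 in the control channel. With that factor divided out the log2 ratio was -0.13 and 0.044, a mean of -0.044 (adjusted p = 0.60, limma), and in processed signals it was -0.095 (adjusted p = 0.47). The size of the Runx1 variant 4 difference therefore ranged between -0.39 and -0.044 with the treatment of position. Median centring gave it -0.92 (adjusted p = 3.2e-18, limma), further from 0 than the median of -0.35.

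The Runx1 probes did not keep their order. The variant 3 ratio lay above the variant 4 ratio by 0.25 ± 0.04 in the first set of values, and below it by 0.12 ± 0.12 with position corrected and by 0.10 ± 0.12 in processed signals (SD, n = 2). No difference between the Runx1 probes held with the 3 sets of values. Whether either probe reads only its assigned variant was not examined, so the probes do not stand for the variants.

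Runx2, the RUNX gene of bone, could not be tested with any of its 4 probes. The probe printed in 10 spots (A_51_P230942) averaged 44.3 and 45.9 with LMO2 siRNA, against 53.3 and 54.0 in the control channel. On replicate 1, 0 of its 10 spots were well above background. On replicate 2, 1 of 10 was, a spot in row 242 that read 84.0 with LMO2 siRNA and 111 in the control channel, where the next highest of the 10 read 44.1 and 51.0. The single-spot probe A_52_P415319 read 43.9 and 43.7 against 54.8 and 51.7, and was not well above background in any reading. The 95th percentile of the 153 negative control spots was 45.3 and 44.0 in the LMO2 siRNA channel and 52.8 and 49.6 in the control channel. Of the readings of these 2 probes, 3 of 4 with LMO2 siRNA lay below it and 4 of 4 in the control channel lay a little above it. The replicate 2 readings of the 10-spot probe are means that include the bright spot in row 242. Their medians over spots were 42.5 with LMO2 siRNA and 47.2 in the control channel, both below the percentiles of 44.0 and 49.6.

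The remaining Runx2 probes stood above background on replicate 1 only, in both channels. A_52_P55876 read 60.0 and 47.7 with LMO2 siRNA, against 90.0 and 54.8 in the control channel, and A_52_P460545 read 50.4 and 40.4 against 69.5 and 48.8. A difference in Runx2 was therefore not detectable on these arrays, which does not show that the transcript is absent. When all probes were tested without regard to brightness, limma called 0 of the 5 untested member probes, and 0 had an unadjusted p under 0.05. Over all genes that test called 5393 of 41174 probes higher and 6079 lower, against 5342 and 6032 of 24676 with the filter. Adding the dim probes thus added few calls for any gene, and 0 of 5 says little about these members.

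Runx3, the RUNX gene of T cells, was measured by 1 of its probes. A_51_P494992 read 111 and 93.2 with LMO2 siRNA, against 153 and 133 in the control channel, low but well above background in all 4 readings. Its log2 ratio was 0.18 and 0.073, a mean of 0.13 ± 0.08 (SD, n = 2; 95% interval 0.0023 to 0.25), and it did not pass the test (limma adjusted p = 0.090). The sign turned with position corrected (-0.074) and in processed signals (-0.038), so no direction is given for Runx3. The spot lies in row 478, where the median of other probes was above 0 in the first set of values. The other Runx3 probe (A_52_P666059) read 50.3 and 46.7 against 75.2 and 54.1, and was well above background only in the control channel of replicate 1.

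Cbfb, the non-DNA-binding partner, had the highest ratio among the member probes. The probe A_51_P300216 read 1158 and 1158 with LMO2 siRNA, against 1326 and 1348 in the control channel, which is a smaller gap between the channels than that of the median probe. Its log2 ratio was 0.64 and 0.60, a mean of 0.62 ± 0.03 (SD, n = 2; 95% interval 0.50 to 0.74), and limma called it 1.54-fold higher (adjusted p = 3.5e-07). That value lay above 97.5% of tested probes and ranked 928 of 24676 by size. It read 0.47 with position corrected (adjusted p = 1.2e-04, limma) and 0.48 in processed signals (adjusted p = 0.054). The last of these misses the threshold over all probes and passes it when 1 probe a gene is tested (adjusted p = 0.040, limma, chosen after seeing the data), so the call in processed signals turns on how many features are adjusted over. The brighter Cbfb probe was higher on both arrays with each of the 3 sets, by 0.47 to 0.62. With median centring it read 0.030 (adjusted p = 0.83, limma), above the median of -0.35 but with no call against 0.

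The dimmer Cbfb probe (A_52_P586157) gave a less steady value. It read 145 and 131 with LMO2 siRNA, against 196 and 215 in the control channel, and the arrays read log2 ratios of 0.22 (replicate 1) and -0.032 (replicate 2), a mean of 0.09 ± 0.17 (SD, n = 2; limma adjusted p = 0.27). With position corrected it was 0.45 and 0.27, a mean of 0.36, and limma called it higher (adjusted p = 0.0013). In processed signals it was 0.58 and 0.22, a mean of 0.40 (adjusted p = 0.12), and with median centring it was -0.23 (adjusted p = 0.039, limma). The Cbfb probes differed by 0.53 ± 0.14 in the first set of values, by 0.11 ± 0.11 with position corrected and by 0.08 ± 0.23 in processed signals. Their spots lie far apart, in row 460 and row 54.

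The authors' deposited table gives the scanner's own log ratio and p-value for each spot, which cover error within 1 array only. The authors' deposited table, turned to LMO2 siRNA over control, gives the brighter Cbfb probe a log2 ratio of 0.50 (p = 0.017) on replicate 1 and 0.47 (p = 0.024) on replicate 2. The authors' deposited table gives the dimmer Cbfb probe 0.58 (p = 0.0065) on replicate 1 and 0.22 (p = 0.28) on replicate 2. For the Runx1 and Runx3 probes that were tested, p in the authors' deposited table was between 0.32 and 0.98. Both Cbfb probes were therefore above 0 on both arrays in the scanner's own values.

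**Figure D2:**
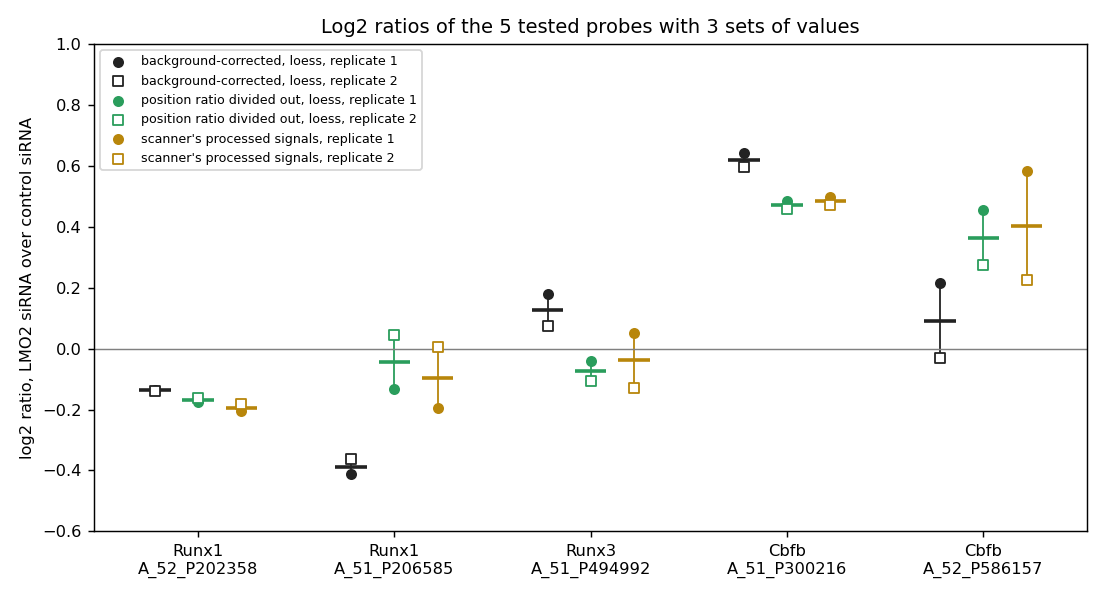
Log2 ratio (LMO2 siRNA over control siRNA) of the 5 tested member probes with background-corrected and loess-normalised signals (black), with the position ratio divided out before loess (green) and with the scanner's processed signals (ochre); filled circles are replicate 1, open squares replicate 2, horizontal bars means of 2 arrays, and vertical lines join the replicates. The brighter Cbfb probe is above 0.4 in all 6 readings (median centring, which gave 0.030, is not drawn), the variant 3 Runx1 probe is below 0 in all 6, and the variant 4 Runx1 probe, Runx3 and the dimmer Cbfb probe change place between the sets.

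Across the array, the median log2 ratio of tested probes in bins of 28 rows ran from -0.22 to 0.17 on replicate 1 and from -0.23 to 0.14 on replicate 2. With position corrected the bins ran from -0.05 to 0.10 and from -0.08 to 0.20, and in processed signals from -0.09 to 0.08 and from -0.07 to 0.06. In the first set of values the drift had the same direction on both arrays, low in the first rows and high in the last ones. The variant 4 Runx1 probe and the dimmer Cbfb probe lie near that low end, and Runx3 and the brighter Cbfb probe near that high end. With position corrected the first rows instead read highest on both arrays. Rows 29 to 56, which hold the variant 4 Runx1 probe and the dimmer Cbfb probe, then had medians of 0.084 on replicate 1 and 0.14 on replicate 2. The position-corrected values of these probes were not adjusted for that.

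**Figure D3:**
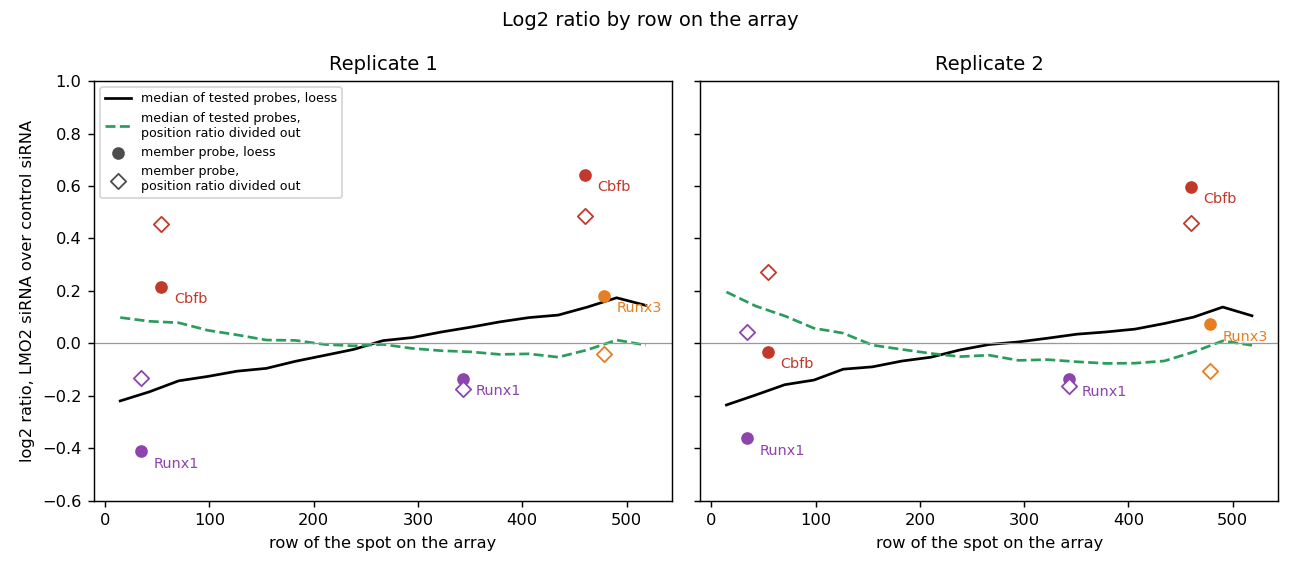
Log2 ratio (LMO2 siRNA over control siRNA) against the row of the spot on the array, 1 panel per replicate. Lines are medians of tested probes in bins of 28 rows after loess (black) and with the position ratio divided out (green, dashed), filled circles are member probes after loess and open diamonds the same with position divided out. The brighter Cbfb probe in row 460 stands above both lines on both arrays, while Runx3 in row 478 lies close to the black line.

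The partners were set against each other as differences of log2 ratios, which were not tested because each pair is 2 probes on 2 arrays. The brighter Cbfb ratio lay above the Runx1 variant 3 ratio by 0.78 on replicate 1 and 0.73 on replicate 2. The mean was 0.76 ± 0.03, which is a 1.69-fold shift of the brighter Cbfb probe relative to the Runx1 variant 3 probe. This gap was 0.64 ± 0.03 with position corrected and 0.68 ± 0.04 in processed signals, so it was alike in the 3 sets. Against the Runx1 variant 4 probe the gap was 1.01 ± 0.07, 0.52 ± 0.14 and 0.58 ± 0.16 in the same order. The brighter probe of the shared partner was thus higher relative to both Runx1 probes on both arrays with each set of values. The dimmer Cbfb probe lay below the brighter one by 0.53 ± 0.14 in the first set, and by 0.11 ± 0.11 and 0.08 ± 0.23 in the others. Its own gaps to Runx1 were not computed, so the sizes above hold for 1 Cbfb probe. In bulk RNA, fewer cells of a type and less RNA per cell cannot be told apart, and protein was not measured.

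The genes whose ratios on the 2 arrays lay nearest to each member were found by Euclidean distance among 12583 genes, each by its brightest tested probe, with clone, predicted-gene, Riken and accession names left out. For Runx1 (variant 3 probe) they were Tmc6, Zmynd10 and Card14, and 1604 genes lay within 0.1. For Runx3 they were Zfand6, Fbxo46 and Ube2q2, with 1047 genes within 0.1, and for Cbfb they were Tmtc2, Arvcf and Tdrd3, with 123 within 0.1. The member with the ratio furthest from 0, Cbfb, had the fewest genes near it, and with 2 arrays the distance separates few genes.

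Genes that work with or under RUNX factors were grouped in 6 lists from textbook knowledge, with 1 probe a gene. Of 77 genes, 63 could be tested, and 17 were called higher, 16 lower and 30 neither, against 23.1% of all 14290 genes called higher and 25.6% lower, 48.8% in all. By the rule for all 3 sets 4 rose (Myb, Gata2, Spi1 and Itgal) and 0 fell, against 3.60% of all genes that rose and 1.04% that fell, 4.64% in all. The list genes' median log2 ratio was -0.0086, against -0.018 for all genes. Both shares of calls and the median lay near those of all genes, and single genes are described next. Median centring in place of loess gave all genes, by their brightest tested probes, a median of -0.41. It kept Myb (0.26), Spi1 (0.31) and Itgal (0.039) above 0. Gata2 (-0.20), Itgb2 (-0.16), Mapk3 (-0.087), Wwp1 (-0.046), Tle5 (-0.016) and Tal1 (-0.36) lay below 0 and above that median.

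Of the DNA-binding partners of RUNX, 9 of 11 were tested, and 5 were called higher, 1 lower and 3 neither. The list median was 0.31, but 0.14 both with position corrected and in processed signals. With median centring it was -0.084, where the median of all genes was -0.41. Myb, a transcription factor of progenitor cells, rose by 0.81 ± 0.10 (SD, n = 2; limma adjusted p = 2.6e-08), with 0.74 and 0.88 on the arrays. Its 3 other tested probes read 0.42, 0.15 and 0.52. Gata2, the GATA factor that precedes GATA-1, rose by 0.43 ± 0.06 (-0.20 with median centring), and Spi1, which encodes the myeloid factor PU.1, rose by 0.43 ± 0.05. Spi1 was dim, at 89.6 and 84.9 with LMO2 siRNA against 86.8 and 83.5 in the control channel, and its ratio was 0.28 with position corrected and 1.01 in processed signals. Tal1, the SCL partner of LMO2, had a ratio of 0.38 ± 0.04 and was called higher. The other sets gave 0.16 with position corrected and 0.18 in processed signals.

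Corepressors that RUNX proteins recruit were tested for 13 of 14 genes, of which 3 were called higher, 5 lower and 5 neither, with a median of -0.016. Tle5, a short member that lacks the WD repeats of the others, was called higher at 0.57 ± 0.06 (limma adjusted p = 9.4e-07), 0.50 with position corrected and 0.51 in processed signals (adjusted p = 0.054). Tle3 (-0.26 ± 0.02), Tle1 (-0.20 ± 0.15) and Tle4 (-0.18 ± 0.04), which encode full-length corepressors, were called lower. Tle3 read -0.13 with position corrected and -0.16 in processed signals, Tle1 read -0.018 and -0.083, and Tle4 read -0.29 in both. For Tle1 the arrays read -0.095 and -0.30. None of these 4 Tle genes met the rule for all 3 sets.

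Coactivators were tested for 7 of 9 genes, of which 0 were called higher and 5 lower. The list median was -0.23, but 0.049 with position corrected and 0.028 in processed signals, so no direction is given for the list. Prmt1, an arginine methyltransferase that modifies RUNX1, had a ratio of -0.47 ± 0.19 and was called lower. It gave -0.10 with position corrected and -0.12 in processed signals. The histone methyltransferase gene Kmt2a (-0.26 ± 0.10) and the acetyltransferase gene Ep300 (-0.23 ± 0.06) were also called lower and read -0.0084 and 0.21 with position corrected. The other tested Ep300 probes read 0.02 and 0.14 in the first set of values. Carm1, another arginine methyltransferase gene, was called lower too (-0.24 ± 0.02, and -0.37 and -0.41 in the other sets), while its other probe read 0.03. So 0 of the 7 rose or fell, and for Ep300 the sign turned.

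Kinases, the phosphatase and turnover factors that act on RUNX proteins were all tested, and of these 15 genes 5 were called higher, 3 lower and 7 neither, with a median of 0.028 (-0.042 with position corrected). The cell cycle genes Cdk1 (-0.55 ± 0.0006) and Cdc20 (-0.53 ± 0.03), which encode a kinase and an activator of the anaphase-promoting complex, were called lower. They read -0.32 and -0.44 with position corrected, and another Cdk1 probe read -0.0040. The MAP kinase gene Mapk3 was called higher at 0.53 ± 0.06, with 0.59 for its other probe, and the ubiquitin ligase gene Wwp1 at 0.50 ± 0.03, with 0.14 and 0.32 for its others. Their adjusted p in processed signals was between 0.054 and 0.079 (limma), so 0 of these 4 rose or fell by the rule.

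Among RUNX targets known from blood cells 17 of 24 were tested, and 5 were called higher, 1 lower and 11 neither, with a median of -0.036 (0.081 with position corrected). Gfi1b, a repressor of erythroid and megakaryocytic cells, had a ratio of -0.83 ± 0.06 and was called lower (limma adjusted p = 1.5e-08). Its ratio was -0.44 with position corrected and -0.41 in processed signals (adjusted p = 0.065). The β2 integrin gene Itgb2 was called higher at 0.43 ± 0.03 (-0.16 with median centring), and its partner gene Itgal rose by 0.28 ± 0.02, although another Itgal probe read -0.03. Spi1, given above, also belongs to this list. The megakaryocyte targets Itga2b (0.12), Pf4 (-0.13) and Nfe2 (-0.05) did not pass.

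Genes that fuse with RUNX1 or CBFB in human leukaemia were tested for 4 of 7, and 2 were called lower and 2 neither, with a median of -0.089 (0.026 with position corrected). Etv6, an ETS family repressor, was called lower at -0.24 ± 0.01, but its other probe read 0.21, and it gave -0.086 with position corrected and -0.19 in processed signals. Cbfa2t3, which encodes the ETO2 corepressor of the TAL1 complex, was called lower at -0.17 ± 0.01, with 0.0004 for its other probe, and gave -0.046 and -0.044 in the same sets. Myh11 (0.02 ± 0.07) and Usp42 (-0.01 ± 0.14) did not pass. Runx1t1, Mecom and Prdm16 could not be tested.

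Markers of other blood cell types were set beside the genes that rose, where 3.60% of all genes rose and 1.04% fell. Of the megakaryocyte markers 9 of 10 were well above background (Ppbp was not), with summed signals of 2472 and 2851 with LMO2 siRNA against 3084 and 3354 in the control channel, and of the 9 tested Gp1ba (1.18 ± 0.05) and Gp5 (0.62 ± 0.01) rose and Gp9 (-0.31 ± 0.05) fell. Of the mast cell markers 7 of 9 were well above background (Mcpt8 and Ms4a2 were not), at 1125 and 1105 against 1091 and 1031, and of 7 tested Hdc (1.22 ± 0.08) and Cpa3 (0.37 ± 0.13) rose. Of the granulocyte and macrophage markers 6 of 9 were, at 674 and 645 against 936 and 883, with Elane, Adgre1 and Csf3r not well above background, and of 6 tested Cd68 rose (0.55 ± 0.05). Of the lymphocyte markers 7 of 10 were, at 749 and 644 against 1265 and 980, with Cd8a, Cd79b and Rag1 not, and 0 of 7 rose or fell, where limma called 2 lower (Cd3e and Dntt). Cpa3 was dim, at 75.4 and 87.9 with LMO2 siRNA against 80.1 and 84.0 in the control channel. Cd68 was dim too, at 108 and 112 against 111 and 100. Of the 13 erythroid markers tested, limma called 5 higher and 4 lower, and by the rule for all 3 sets 1 rose (Icam4) and 0 fell. The part of other cell types in the values of Cbfb, Myb, Gata2, Spi1 and Itgal was not tested.

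**Figure D4:**
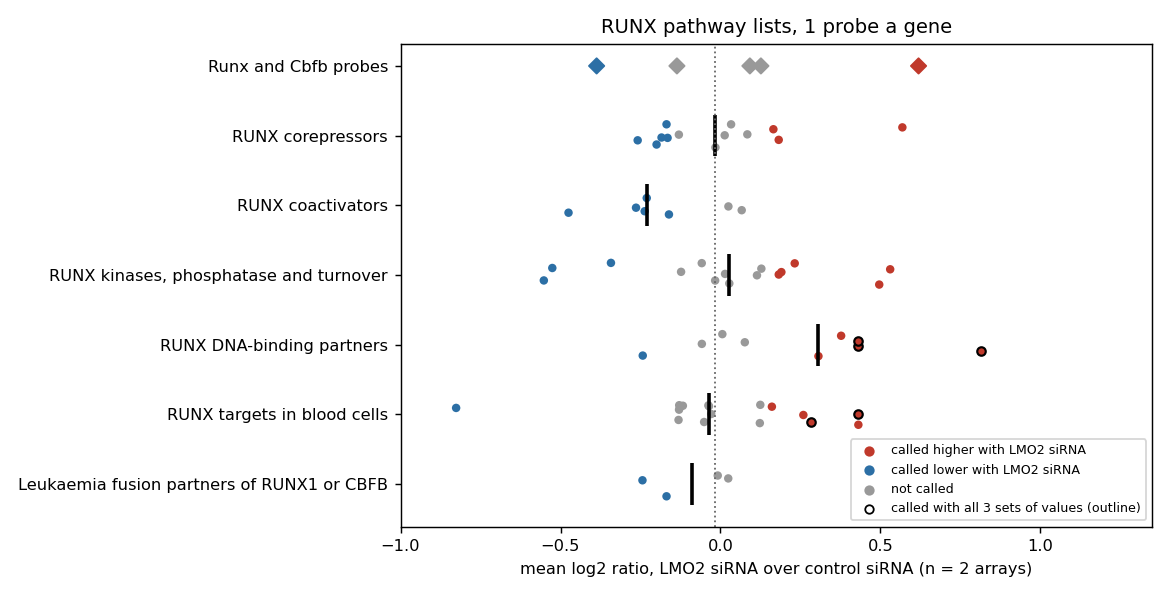
Mean log2 ratio (LMO2 siRNA over control siRNA, n = 2 arrays) of the 5 tested member probes (diamonds) and of the genes of 6 RUNX pathway lists (circles, 1 probe a gene), coloured by the limma call; black bars are list medians, the dotted line is the median of all genes (-0.02), and black outlines mark genes called with all 3 sets of values. Outlines appear for Myb, Gata2 (whose sign turned with median centring), Spi1 and Itgal, on the side higher with LMO2 siRNA. Of the list medians drawn, that of the DNA-binding partners (0.31) lies furthest from the dotted line. It was 0.14 with position corrected, and -0.084 with median centring, where that of all genes was -0.41.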

How the data were processed

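Total RNA of both arms was labelled with Cy3 (LMO2 siRNA) or Cy5 (control) and hybridised to 2 Agilent arrays, per the labels. Agilent Feature Extraction 9.1.3.1 quantified the spots, per the file headers. Deposited values are linear intensity (mean signal, local background and processed signal for each channel) and a multiplicative position ratio. Per the file headers they also hold a log10 ratio of red over green with a p-value. The error of that log ratio, used as a score with no fixed range, is as deposited by the authors' scanner software. The series' own table holds the authors' log10 ratios. No source used here names a genome build for the array, and promoters are those of RefSeq, GRCm38.p6.

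Mean signals were corrected with normexp (offset 50) and normalised by loess in limma 3.58.1 (R 4.3.3), with 1639 control spots at weight 0 and then left out. Ratios are LMO2 siRNA over control, averaged over the spots of a probe. A probe was tested if at least 1 channel, the same in both replicates, was well above background. P-values from lmFit and eBayes were adjusted by Benjamini-Hochberg over 24676 probes at a threshold of 0.05 (1 residual and 14.6 prior degrees of freedom). The code was tested on simulated data. Of 41174 probes, 24844 were named by RefSeq accession, 9636 by the file's symbol and 6694 not at all. The number of arrays limits the precision.

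Members and lists were chosen with earlier results of these data known. Named genes are Lmo2, every member probe, the 4 unsaturated genes of each list with the largest absolute log2 ratio, and the 3 nearest genes of each member. Itga2b, Pf4, Nfe2 and marker genes were named with their values in view. Other settings tried were background correction, offset 10, normalisation, position, filters, saturated and outlier-flagged spots, 1 probe a gene, variance priors, separate channels, the authors' own log10 ratios and each array alone. Processed signals with 1 probe a gene were added after seeing the data.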

Additional observations from a re-analysis of the deposited data

How the results depend on the processing

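Lmo2 kept its direction with all 18 alternatives (-2.57 to -1.82) and its call with the 16 that give a test. The brighter Cbfb probe kept its sign with all 18 and its call with all of those 16 but 3: processed signals (0.48, limma adjusted p = 0.054), the series' own table (0.485, adjusted p = 0.056) and median centring in place of loess (0.030, adjusted p = 0.83). Median centring put the median of all tested probes at -0.35, so the brighter Cbfb probe still lay above that median. It also gave -0.67 for Runx1 variant 3, -0.92 for Runx1 variant 4, -0.11 for Runx3 and -0.23 for the dimmer Cbfb probe, whose sign it turned. Runx1 variant 3 passed the test with median centring, with position corrected (-0.17) and with 1 probe a gene (-0.14), and it did not pass in the other 13 with a test. The variant 4 probe of Runx1 lost its call with position corrected (-0.04), in processed signals and in the series' own table (-0.10 each). Runx3 turned sign in 5: median centring, position corrected (-0.074), processed signals (-0.038, also with 1 probe a gene) and the series' own table (-0.038). The dimmer Cbfb probe passed with position corrected (0.36). Each array alone gave -0.14 to -0.13 for Runx1 variant 3, -0.41 to -0.36 for variant 4, 0.07 to 0.18 for Runx3, 0.60 to 0.64 for the brighter and -0.03 to 0.22 for the dimmer Cbfb probe, and -2.02 to -1.82 for Lmo2, with no test on 1 array.

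Of all probes, 5342 were called higher and 6032 lower. The counts were 966 and 382 in processed signals, 1054 and 564 there with 1 probe a gene, 618 and 15050 with median centring, 3511 and 3924 with 1 probe a gene, where fewer features were tested, and 886 and 325 in the series' own table. The share of calls that were higher was 47.0% as reported, 71.7% in processed signals, 65.1% there with 1 probe a gene, 73.2% in the series' own table and 3.94% with median centring. The fit on processed signals had 2.4 prior degrees of freedom, so a missed threshold there says little. Runx2 had no tested probe and so no ratio under any alternative that keeps the filter on dim probes. No paired analysis was possible because each array carries both arms and its ratio is already the within-array difference, which leaves 1 group of ratios. Both arrays share the dye orientation, so no alternative bears on dye effects.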
